A study of Mus musculus with 20 samples.

Results

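Gene expression in the abdominal aorta was compared, across all genes, between Plod1-/- mice that received Ang II and wild-type (WT) mice that received saline. Both the genotype and the treatment differed between these groups. They were chosen by genotype and treatment as the labels give them, and made up 10 of the 20 mice sequenced, 5 in each group. The Plod1-/- mice carried a knockout of lysyl hydroxylase 1 (LH1, encoded by Plod1) and had received Ang II (angiotensin II) at 1000 ng/kg per minute from a subcutaneous osmotic pump, and the WT mice had received saline. The strain was C57BL/6 in the labels and C57Bl/6NCrl in the methods of the study. The mice were given in the labels as 6 months old and were killed on day 14 of the infusion. According to the same methods only male mice were used, and the Plod1-/- mice were bred from heterozygotes. The age in those methods is younger than in the labels. A difference between these groups may come from the genotype, from Ang II or from both together, and these cannot be told apart here. The other 10 mice, which were either Plod1-/- with saline or WT with Ang II, are given only as values beside those of the comparison. Each library was labelled as a separate mouse.

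LH1 is an enzyme of the endoplasmic reticulum that hydroxylates lysines in the helical part of procollagen chains. Hydroxylysine is needed for the more stable kinds of collagen cross-link and carries the sugars attached to collagen. Outside the cell, lysyl oxidases oxidize lysine and hydroxylysine at the ends of the chains, and the aldehydes formed then join neighbouring molecules. The wall of the aorta is made of smooth muscle cells between layers of elastin, an inner endothelium, and an outer adventitia of fibroblasts, collagen, nerves and small vessels, with fat around it. Ang II is a peptide hormone that raises blood pressure and acts on smooth muscle cells, fibroblasts and leukocytes.

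Plod1 was read as a check of the labels. The gene lies on the minus strand of chromosome 4 of GRCm38, from 147909753 to 147936767. Its level in FPKM, a fragment count scaled by transcript length and library size, was 26.1, 26.2, 27.9, 22.9 and 26.5 in the saline-treated WT mice. In the Ang II-treated Plod1-/- mice it was listed at 0.0284 in mouse 1 and at 0 in mice 2 to 5. All 10 libraries fitted their genotype labels, and the difference was -4.74 on the log2(FPKM + 1) scale (SE 0.08, limma adjusted p = 1.21e-10), which is a fitted value and no measure of how complete the loss was.

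Of the smooth muscle, endothelial and fibroblast lists, smooth muscle had the highest summed FPKM in both groups. Summed over the 24 smooth muscle genes listed, the FPKM was between 22800 and 32000 in WT mice and between 4260 and 25100 in Ang II-treated Plod1-/- mice. The 18 endothelial genes summed to 228 to 494 and to 165 to 375, and the 13 fibroblast genes to 2130 to 3220 and to 1020 to 1750. Genes of some other organs and cells were low. The 12 adrenal and kidney genes summed to at most 5.3 FPKM in any of the 10 mice. The 12 liver and pancreas genes summed to at most 26.1, and the 15 genes of T and natural killer cells to at most 14.3. Lists of fat, red blood cells and skeletal muscle were not low. The adipocyte genes summed to 270 to 747 in WT mice and to 611 to 4560 in Ang II-treated Plod1-/- mice. The red blood cell genes summed to 161 to 1460 and to 774 to 9770. The skeletal muscle genes summed to 249 to 498 and to 26.8 to 102. The total FPKM of a library was 353864 to 364341 in WT mice and 344207 to 437790 in Ang II-treated Plod1-/- mice, of which mitochondrial transcripts took 8.37% to 14.6% and 9.23% to 21.1%. Read depth was unknown. In RNA from a whole vessel, fewer cells of a type and less RNA per cell cannot be told apart, and this holds for every result that follows.

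Mouse 1 of the Ang II-treated Plod1-/- group stood apart. Xist, the RNA of the inactive X chromosome, was at 7.93 FPKM in this library and at no more than 0.0328 in the other 9. Ddx3y, a gene of the Y chromosome, was at 1.25 in mouse 1, at 8.39 to 9.52 in the other 4 mice of its group and at 10.7 to 14 in WT mice. Saline-treated Plod1-/- mouse 5, which is in neither group, had Xist at 15.1 and Ddx3y at 0.0961. These levels in both mice do not match the male mice of the methods, and the cause was not tested. Mouse 1 also had the value nearest to the WT mice in 863 of the 1072 genes higher in its group (80.5%) and in 365 of the 630 genes lower (57.9%). Counts that differ much without it, and calls of named genes that change, are therefore given with and without it.

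Mice 3, 4 and 5 of the same group held the most RNA of sympathetic nerve cells. Tyrosine hydroxylase (Th), the enzyme that starts catecholamine synthesis, was at 3.53, 0.312, 53, 81.4 and 55.1 FPKM in Ang II-treated Plod1-/- mice 1 to 5 and at no more than 0.125 in any WT mouse. Dopamine beta-hydroxylase (Dbh), which makes noradrenaline, was at 3.57, 0.424, 89.7, 198 and 92.7, against 0.0275 to 0.417 in WT mice. The groups did not overlap in either gene (exact permutation test, two-sided p = 0.00794 for each, the smallest that 5 against 5 mice can give). The neuropeptide Npy rose, from 0.391 to 1.34 in WT mice to 14.1, 6.64, 158, 439 and 77.6 (log2 fold change 5.02, SE 0.93, adjusted p = 0.00186). Mice 1 and 2 also lay above every WT mouse in these genes, so they were not free of such RNA. With only mice 1 and 2 in that group Npy was still called higher (2.59, adjusted p = 0.00269). The part of this RNA in the other results was not tested. Counts with mice 1 and 2 as the only Ang II-treated Plod1-/- mice, a choice made after the data were seen, are given where they differ much. Fewer mice also lower such a count, and mouse 1, nearest to the WT mice in most of the genes counted above, is 1 of these 2. In these counts the nerve RNA, mouse 1 and the number of mice cannot be told apart.

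Of 12288 genes tested, 1702 were differentially expressed genes (DEGs), that is, their Benjamini-Hochberg adjusted p from limma was below 0.05 and they differed by more than 1, up or down, on the log2(FPKM + 1) scale. This scale makes changes of weakly expressed genes look smaller than they are. This was 13.9% of the genes tested. Expression in the Ang II-treated Plod1-/- mice was higher for 1072 genes (8.72%) and lower for 630 (5.13%). The increases were also larger: 368 genes rose and 71 fell by more than 2 on the log2 scale, and 86 rose and 5 fell by more than 3. The ranges of both groups were separate in 3199 genes (26%), 1627 of them higher and 1572 lower, and 1291 of the DEGs were among them. A gene at 0 in a group can pass the filter on low values, an FPKM of at least 1 in 5 of the 10 mice, only through the other group. In 197 of the genes tested every WT mouse was below 1 FPKM, and in 58 every Ang II-treated Plod1-/- mouse was. Such genes passed only because all 5 mice of the other group reached 1 FPKM, so their groups could not overlap. Several lists below hold some of them.

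Without mouse 1 the count of DEGs was 2099, or 17.1% of the genes tested (1356 higher and 743 lower), and 1679 of the 1702 were among them. With mice 1 and 2 as the only Ang II-treated Plod1-/- mice it was 902, or 7.34% (539 higher and 363 lower), and 847 of the 1702 were among them. These shares are the background for the list counts given below from the same fits. After quantile normalization the median over all genes was -0.067 in place of 0.047 on the log2 scale, and the split was 944 higher and 805 lower, so small differences in either direction depend on the scaling.

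**Figure D1:**
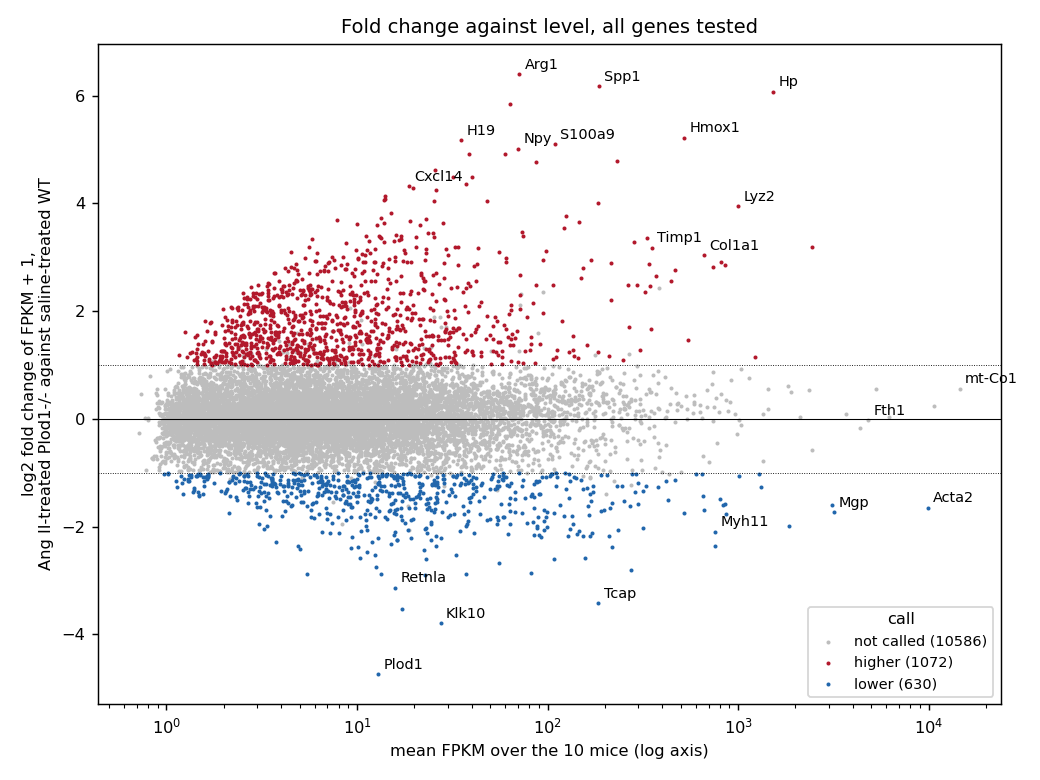
Log2 fold change of FPKM + 1 (Ang II-treated Plod1-/- against saline-treated WT mice, vertical axis) against the mean FPKM over the 10 mice (log axis) for the 12288 genes tested, coloured by whether a gene was called higher (1072), lower (630) or neither. Increases reach further than decreases: Arg1 and Spp1 lie above 6, and Plod1, at -4.74, is the lowest gene.

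The 10 largest increases among named genes whose groups did not overlap were Arg1 (6.40 on the log2 scale), Spp1 (6.18), Hp (6.07), Chil3 (5.85), Hmox1 (5.22), H19 (5.18), S100a9 (5.10), Npy (5.02), S100a8 (4.91) and Mpeg1 (4.91). Most are genes of macrophages and neutrophils or of the response to heme. The exceptions are Npy and H19, an imprinted noncoding RNA of fetal tissues. H19 was at 0.55, 0.187, 0.109, 0.22 and 0.231 FPKM in WT mice and at 40.7, 10.7, 26.7, 67.4 and 204 in Ang II-treated Plod1-/- mice. It could be tested only because it was high in the latter. The largest decreases after Plod1 were in Klk10 (-3.79), Tcap (-3.42), Retnla (-3.14), Casq1 (-2.89), Tceal6 (-2.88), Mylk4 (-2.88), C7 (-2.86), Cytl1 (-2.82) and Smim5 (-2.75, a gene that overlaps Recql5 on the other strand, which these libraries do not separate). Klk10, a secreted protease of the kallikrein family, was at 37.1, 42.1, 64.2, 91.2 and 25.4 FPKM in WT mice and at 2.44, 4.86, 5.05, 0.68 and 1.47 in Ang II-treated Plod1-/- mice. Every one of these 5 lay below every WT mouse.

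The fibrillar collagens, the rope-like proteins that carry the tension of the adventitia, rose together. All 7 that passed the filter of 11 listed were higher (background over all genes 8.72%), with a median log2 fold change of 2.04 against 0.0467 over all genes. Col1a1, the main chain of type I collagen, was at 112, 127, 85.1, 145 and 92.2 FPKM in WT mice and at 413, 450, 790, 1380 and 3050 in Ang II-treated Plod1-/- mice. The lowest of the latter was above the highest WT mouse, and the level differed widely within the group, from mouse 1 to mouse 5 (log2 fold change 3.03, SE 0.48, adjusted p = 0.000832). Its partner chain Col1a2 rose from 111 to 170 in WT mice to 187, 288, 477, 587 and 1220 (1.66, adjusted p = 0.00942). Col3a1, type III collagen, rose from 67 to 138 to 307, 379, 769, 803 and 1890 (2.77, adjusted p = 0.000815). The type V chains, which set the width of the fibrils, rose as well, Col5a1 by 2.04, Col5a2 by 1.95 and Col5a3 by 3.73. Col5a3 was below 1 FPKM in every WT mouse (0.279 to 0.617) and at 1.84, 21.4, 19.4, 30.6 and 58.1 in the Ang II-treated Plod1-/- mice. It could be tested only because it was high in the latter. Col27a1 rose least (1.02) and was under the fold threshold in several other fits. It was at 0.91 after quantile normalization and at 0.98 without mitochondrially encoded genes. It was at 0.98 without WT mouse 3 and 0.99 without WT mouse 5. Without Ang II-treated Plod1-/- mouse 4 it was at 0.95, and without mouse 5 at 0.81. Without mouse 1 all 7 were again called, with a median of 2.35, and with mice 1 and 2 alone 5 were.

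The enzymes that modify collagen moved unequally. Of 25 tested, 5 rose, 2 fell and the median was 0.32 (28% called, against 13.9% of all genes). The oxidases that start the cross-link rose. Lox was at 34.2, 47.7, 22.9, 44.8 and 28.7 FPKM in WT mice and at 86.2, 89.9, 115, 196 and 280 in Ang II-treated Plod1-/- mice (log2 fold change 1.97, SE 0.34, adjusted p = 0.00119). Loxl2 was at 8.64, 7.53, 4.98, 6.16 and 4.61 and at 23, 17.8, 31.1, 34.6 and 42.7 (2.03, SE 0.23, adjusted p = 0.000178), and its groups did not overlap. Loxl1 (1.10) and Loxl4 (1.09) rose less. P4ha3, a subunit of a prolyl 4-hydroxylase, which stabilizes the collagen helix, rose from 0.19 to 0.365 FPKM to 6.05, 4.1, 7.93, 15.4 and 26.6 (3.08, adjusted p = 0.000247). It was below 1 FPKM in every WT mouse and could be tested only because it was high in the other group. The prolyl 3-hydroxylase P3h2 fell (-1.09), as did Pcolce2, an enhancer of procollagen C-proteinase, from 31.4 to 43.7 to 8.27 to 13.4 (-1.67, adjusted p = 5.2e-05). In a fit with mice 1 and 2 alone 3 of the 25 rose and 1 fell.

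The remaining lysyl hydroxylases were not called. Plod2, which hydroxylates the ends of the collagen chain, was at 11.6, 15.3, 13.3, 14.5 and 13.7 FPKM in WT mice and at 13.1, 10.3, 28.5, 17.3 and 29 in Ang II-treated Plod1-/- mice (log2 difference 0.39, 95% confidence interval -0.18 to 0.96, adjusted p = 0.247). Its groups overlapped, and with mice 1 and 2 alone the difference was -0.21. Plod3, which also has glycosyltransferase activity, was at 35.4 to 40.2 and at 36.3 to 63.2 (0.32, interval 0.02 to 0.62, adjusted p = 0.0809). Both intervals end below 1 on the log2 scale.

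Among elastic fibre genes, 2 of 16 tested rose, 5 fell and 9 were not called (43.8% called, against 13.9% of all genes). Fibulin-5 (Fbln5), which helps assemble elastin on microfibrils, fell from 119, 91.6, 78.9, 107 and 74.5 FPKM to 30.9, 25.3, 28.7, 26.2 and 44.1 (log2 fold change -1.58, SE 0.18, adjusted p = 0.000157). The groups did not overlap. Fbln1 (-1.93), Ltbp4 (-1.59), Mfap4 (-1.51, overlapping Mapk7 on the other strand) and Ltbp1 (-1.29) also fell. Ltbp1 and Ltbp4 encode proteins that hold latent TGF-beta in the matrix. Fbln2 (1.90) and Emilin2 (1.96), an elastin-interface protein, rose. Elastin itself (Eln) was at 185, 314, 83.8, 295 and 128 FPKM in WT mice and at 252, 189, 691, 350 and 472 in Ang II-treated Plod1-/- mice (0.97, interval 0.03 to 1.91, adjusted p = 0.0899), a spread in which the groups overlapped. Fibrillin-1 (Fbn1), the main microfibril protein, was at 17.4 to 22.2 and at 21 to 89.9 (0.97, adjusted p = 0.0346), and was not a DEG because its fold change was under the threshold. In the fit without mouse 1 it was called higher (1.2, adjusted p = 0.00606). Restricted to mice 1 and 2, 1 of the 16 rose and 3 fell.

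In the basement membrane, the sheet around each smooth muscle cell and under the endothelium, 2 of 19 genes rose and 4 fell (31.6% called, against 13.9% of all genes). The type IV collagen chains that fell were Col4a6 (-2.1), Col4a5 (-1.14) and Col4a4 (-1.02). Col4a6 was at 22, 25.6, 25.6, 26.6 and 30.5 FPKM in WT mice and at 4.36, 5.99, 7.8, 4.54 and 4.41 in Ang II-treated Plod1-/- mice. Mouse 1 lay among the others of its group there, and no value overlapped. The common chain Col4a1 was at 61.7 to 102 and at 101 to 157 (0.53, not a DEG). The laminin chain Lamb2 fell (-1.40) and Lamb1 rose (2.16), with mouse 1 at 1.93 FPKM, inside the WT range of 1.59 to 2.25, and mice 2 to 5 at 18.4, 10.2, 17.5 and 26.4. From mice 1 and 2 only, none of the 19 rose and 4 fell.

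Matricellular proteins, which act on cells without bearing load, included some of the clearest increases. Of 18 tested, 6 rose and 3 fell. Thrombospondin-1 (Thbs1), which activates latent TGF-beta and binds collagen and fibronectin, was at 19.3, 18.1, 5.28, 11.9 and 7.84 FPKM in WT mice and at 130, 63.2, 144, 156 and 189 in Ang II-treated Plod1-/- mice. Mouse 1 lay within the other values of its group, and no value overlapped (log2 fold change 3.40, SE 0.37, adjusted p = 0.000132). Thbs4 (2.77), Thbs2 (1.91), the WNT1-inducible Ccn4 (2.07) and tenascin C (Tnc, 1.66) also rose. Tnc was highest in mouse 1, at 153 FPKM, and at 19 to 57.8 in the others. Osteopontin (Spp1), secreted by macrophages and by smooth muscle in injury, rose from 1.14, 2.62, 2.28, 4.18 and 2.74 to 79.6, 91.2, 570, 828 and 275 (6.18, SE 0.61, adjusted p = 9.57e-05). Sparcl1 (-1.30), Ccn3 (-1.27) and Tnxb (-1.03) fell. Periostin (Postn) was at 127 to 203 and at 65 to 413 (0.32, adjusted p = 0.549), and connective tissue growth factor (Ccn2) at 436 to 1260 and at 251 to 1230 (-0.70, adjusted p = 0.205). In the fit without mouse 1 Ccn2 was called lower (-1.06, adjusted p = 0.0158) and Tnxb was no longer called (-0.93, adjusted p = 0.00522). When mice 1 and 2 alone stood for their group, 4 of the 18 rose and 1 fell.

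Of the matrix proteases and their relatives, 29 of 41 passed the filter, 11 rose and 3 fell. The gelatinase Mmp9 was at 5.39, 1.44, 2.28, 1.58 and 2.61 FPKM in WT mice and at 4.65, 23.5, 72.4, 59.9 and 17.4 in Ang II-treated Plod1-/- mice (log2 fold change 2.91, SE 0.61, adjusted p = 0.00369). Mouse 1 lay inside the WT range. Mmp14, the membrane protease that activates pro-MMP2, rose from 26.1 to 33.1 to 42.6, 54.6, 103, 117 and 171 (1.49, adjusted p = 0.00438). Mmp2 itself was at 51.9 to 90.1 and at 50.7 to 209 (0.47, adjusted p = 0.267). Adam8 (3.71), a protease of leukocytes, Adam12 (2.82), of activated mesenchymal cells, and Adam19 (1.54) rose, and Adam33 (-1.77), Adamts1 (-1.22) and Adamts8 (-1.22) fell. Among lysosomal cathepsins, Ctss, an elastase of macrophages, was at 16.3, 10.7, 12.4, 13.7 and 9.38 and at 89.8, 475, 721, 639 and 334 (4.79, SE 0.48, adjusted p = 0.000102). Ctsb (1.46), Ctsd (1.28) and Ctsk (1.24), a collagenase, rose less. Using mice 1 and 2 alone, 3 of the 29 rose and 2 fell.

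The tissue inhibitors of metalloproteinases differed among themselves. Timp1 was at 51.7, 85.6, 45.7, 109 and 51.5 FPKM in WT mice and at 752, 293, 837, 795 and 502 in Ang II-treated Plod1-/- mice (log2 fold change 3.18, SE 0.33, adjusted p = 0.000115). It lies on the other strand of an intron of Syn1. Timp2 was lower in every Ang II-treated Plod1-/- mouse, at 104 to 171 against 260 to 329, but just missed the fold threshold (-0.97, adjusted p = 0.000611). Timp3, which is bound to the matrix, was at 28.5 to 47.3 and at 11.3 to 32.9 (-0.95, adjusted p = 0.0118). In a fit with mice 1 and 2 alone 2 of the 4 TIMPs were called lower, and Timp1 was again higher.

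In TGF-beta and activin signalling, 4 of 21 genes rose and 2 fell (28.6% called, against 13.9% of all genes). The receptor Tgfbr1 fell evenly, from 22.1, 28.1, 19.5, 33.1 and 21.5 FPKM to 10.5, 10.1, 10.2, 9.91 and 9.1 (log2 fold change -1.21, SE 0.14, adjusted p = 0.000174). The ligand Tgfb1 rose (1.06), as did the activin subunit Inhbb (1.14), the activin antagonist Fst (1.30) and the inhibitory Smad6 (1.32). Fstl3, another activin antagonist, fell (-1.58), with mouse 1 at 81.9 and mice 2 to 5 at 13.3 to 24.8, against 66.6 to 93.8 in WT mice. Without mouse 1 a further gene fell, 3 in all, and with mice 1 and 2 alone 2 rose and 1 fell.

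**Figure D2:**
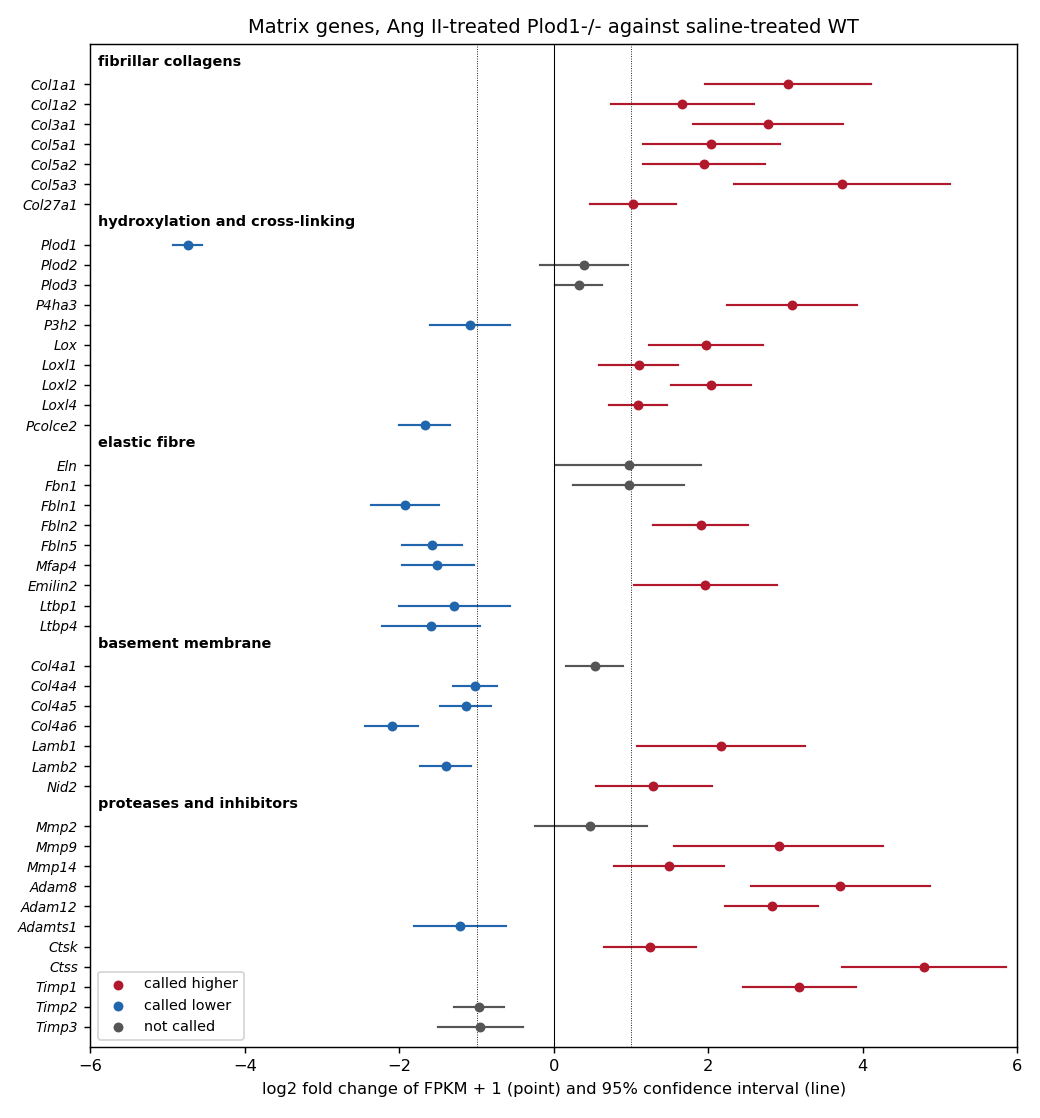
Log2 fold change of FPKM + 1 with its 95% confidence interval for matrix genes, Ang II-treated Plod1-/- against saline-treated WT mice, grouped by role. The fibrillar collagens (1.02 to 3.73) lie to the right of 0, Plod2 (0.39) and Plod3 (0.32) lie near 0, and Fbln5 (-1.58), Fbln1 (-1.93) and Col4a6 (-2.1) lie to the left.

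The contractile genes of smooth muscle fell as a group. Of 23 tested, 19 were lower and none was called higher (background of lower genes 5.13%), with a median log2 fold change of -1.53. Acta2, smooth muscle actin and the most abundant nuclear-encoded transcript of these libraries, was at 17400, 15200, 13000, 11800 and 12800 FPKM in WT mice and at 14500, 3470, 5460, 3280 and 1900 in Ang II-treated Plod1-/- mice. Mouse 1 lay within the WT range and mice 2 to 5 below it (-1.65, SE 0.47, adjusted p = 0.0164). Myh11, the smooth muscle myosin heavy chain, was at 1350, 1190, 1210, 930 and 1200 and at 801, 307, 212, 171 and 166, with no overlap (-2.1, SE 0.38, adjusted p = 0.00163). Calponin (Cnn1) fell by 1.70 and Tagln by 1.35, but mouse 1 was above every WT mouse in both. Tagln overlaps Pcsk7 on the other strand and was listed at only 7.47 to 10.6 FPKM in WT mice, far below the other contractile genes named here apart from Myocd.

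Among the regulators of this programme, myocardin (Myocd), the coactivator that turns the contractile genes on together with serum response factor, fell without overlap, from 5.2, 5.6, 2.97, 3.81 and 4.94 FPKM to 1.72, 1.07, 1.05, 1.1 and 1.1 (log2 fold change -1.30, SE 0.15, adjusted p = 0.000203). Itga8, an integrin of smooth muscle, fell from 219 to 238 to 85.7, 63.7, 54.4, 38.7 and 32.5 (-2.14, adjusted p = 0.000119). Lmod1 (-2.18), Mylk (-1.83), Smtn (-1.65) and Flna (-1.61) fell without overlap as well. The subunits of myosin light chain phosphatase and its inhibitor, Ppp1r12b (-1.99) and Ppp1r14a (-1.35), were also lower. The count of lower members was 20 without mouse 1 and 8 with mice 1 and 2 alone, where the median was -0.97.

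Serum response factor binds a sequence known as the CArG box. Within the 250 bases before a RefSeq transcription start (GRCm38.p6), on either strand, it stood in 2 of the 18 tested contractile genes with such a sequence (11.1%), in 14 of 437 lower DEGs (3.2%) and in 1.47% of all genes tested. Only 1 of the 15 lower members held it, Myl9, the regulatory myosin light chain, whose window is printed because it alone pairs the box with a lower level. Capitals mark the box.

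Myl9, chr2:156775214-156775463, plus strand: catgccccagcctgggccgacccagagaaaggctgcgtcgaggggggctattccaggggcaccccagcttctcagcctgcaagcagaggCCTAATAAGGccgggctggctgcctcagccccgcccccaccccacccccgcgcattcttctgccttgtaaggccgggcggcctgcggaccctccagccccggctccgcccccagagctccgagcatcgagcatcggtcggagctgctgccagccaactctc

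The box is centred 156 bases before the start. Myl9 was at 5650, 5110, 4020, 3940 and 3940 FPKM in WT mice and at 3230, 1520, 1700, 1150 and 724 in Ang II-treated Plod1-/- mice (-1.60, SE 0.35, adjusted p = 0.00427), with every one of the latter below every WT mouse. A match is a description of the letters and not a bound site.

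Ion channels and calcium handling showed 7 lower genes of 23 and none called higher (30.4% called, against 13.9% of all genes). Kcnmb1, the subunit that tunes the large-conductance potassium channel of smooth muscle to calcium, fell from 74.9, 70.7, 72.5, 65.6 and 79.4 FPKM to 55.4, 12.6, 27.7, 16.5 and 7.52 (log2 fold change -1.87, SE 0.41, adjusted p = 0.00455). It overlaps Kcnip1 on the other strand. The ATP-sensitive channel subunit Abcc9 (-1.38), Cacna2d1 (-1.15), the inositol trisphosphate receptor Itpr1 (-1.13), the ryanodine receptor Ryr2 (-1.07) and the calcium pump Atp2b4 (-1.03) fell too. The pore of the L-type calcium channel, Cacna1c, was at 2.69 to 4.21 and at 1.52 to 3.02 (-0.63, adjusted p = 0.00732), under the fold threshold. Restricted to mice 1 and 2, 3 of the 23 fell.

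Of 14 genes of nitric oxide and cyclic GMP signalling, which relaxes smooth muscle, 6 fell and 2 rose. Both subunits of soluble guanylate cyclase, the receptor for nitric oxide, fell. Gucy1a1 was at 13.5, 14.1, 21.1, 16.8 and 22.2 FPKM in WT mice and at 4.87, 6, 5.02, 6.09 and 4.72 in Ang II-treated Plod1-/- mice (log2 fold change -1.53, SE 0.15, adjusted p = 8.9e-05), and Gucy1b1 fell by 1.56. The phosphodiesterase Pde5a, which degrades cyclic GMP, fell in every mouse, from 14 to 20.9 to 3.46 to 5.65 (-1.77, adjusted p = 4.44e-05). Mrvi1 (-1.89), a target of cyclic GMP-dependent kinase, Pde3a (-1.25) and the natriuretic peptide receptor Npr1 (-1.19) fell. Pde1b rose from 1.53 to 1.95 to 5.83, 9.77, 10.9, 14.6 and 7.76 (1.94, adjusted p = 9.81e-05), and Ddah1, which degrades an inhibitor of nitric oxide synthase, from 0.091 to 0.289 to 5.13, 2.67, 4.75, 14.9 and 31.8 (2.93, adjusted p = 0.00115). Ddah1 was below 1 FPKM in every WT mouse and could be tested only because it was high in the other group. Endothelial nitric oxide synthase (Nos3) was at 8.81 to 25 and at 5.81 to 11.3 (-0.82, adjusted p = 0.0301), under the fold threshold. Prostacyclin synthase (Ptgis), which makes a vasodilator, fell from 617 to 874 to 478, 278, 243, 151 and 127 (-1.76, adjusted p = 0.00153).

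Among 15 receptors and ligands of vasoactive hormones tested, 2 rose and 2 fell (26.7% called, against 13.9% of all genes). Angiotensin-converting enzyme (Ace), which makes Ang II, was at 127, 131, 147, 191 and 176 FPKM in WT mice and at 33.4, 56.3, 27.6, 25 and 44 in Ang II-treated Plod1-/- mice (log2 fold change -2.07, SE 0.22, adjusted p = 0.000121). The endothelin receptor Ednrb rose from 1.01 to 2.05 to 4.5, 27.6, 19.3, 26.7 and 24.5 (2.91, adjusted p = 0.000421), while Ednra was at 1.44 to 1.97 and at 1.6 to 4.91 (0.64, not a DEG). The serotonin receptor Htr1b fell (-1.25). From mice 1 and 2 only, 1 of the 15 rose and 1 fell.

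Chemokines, the secreted proteins that draw leukocytes out of the blood, rose almost throughout. Of 23 tested among 32 listed, 19 were higher (background over all genes 8.72%), 1 was lower, and the median log2 fold change was 1.96. Among the 23, 2 were below 1 FPKM in every WT mouse and could be tested only because they were high in the other group. The higher chemokines included ligands for neutrophils, for monocytes and for other cells. Of the neutrophil ligands, Cxcl5 was at 0.0195, 0.0198, 0.178, 0.18 and 0.0631 FPKM in WT mice and at 3.98, 9.26, 12.6, 12 and 6.59 in Ang II-treated Plod1-/- mice (3.09, SE 0.25, adjusted p = 4.25e-05). Cxcl5 was among the chemokines below 1 FPKM in every WT mouse, so its groups could not overlap. Cxcl2 (3.45), Ppbp (3.20), Cxcl1 (1.96) and Cxcl3 (1.82) also rose. Of the monocyte ligands, Ccl2 was at 17.1, 12.8, 2.14, 5.85 and 3.31 and at 22.1, 52.5, 89.1, 92 and 43.8 (2.86, SE 0.53, adjusted p = 0.00174). Ccl8 rose from 1.75 to 2.77 to 64.6, 43.7, 64.6, 50.7 and 140 (4.35, SE 0.26, adjusted p = 1.17e-05), a rise that mouse 1 shared in full. Ccl12 (2.91), Ccl7 (2.84), Ccl6 (2.80), Ccl3 (2.75) and Ccl9 (1.89) rose as well.

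Cxcl14, a chemokine of fibroblasts and epithelia, rose from 0.398, 0.872, 1.42, 0.49 and 0.882 to 19.3, 39.6, 28, 54.8 and 41.7 (log2 fold change 4.32, SE 0.26, adjusted p = 1.17e-05). Cxcl12, which stromal cells make, rose from 13 to 18.8 to 39.5 to 62.8 (1.64, adjusted p = 4.44e-05), with mouse 1 at 49.2. Cxcl13, a ligand for B cells, rose by 1.94 with overlapping groups. Ccl27a fell (-1.55), and shares its locus with Il11ra1, on the other strand, which fell as well (-1.12). When mice 1 and 2 alone stood for their group, 13 chemokines were higher, and the lower call was kept.

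The promoters of these chemokines are printed in part because several hold the letters of a TATA box, the element that sets the transcription start of strongly inducible genes. The letters TATAAA, searched on either strand within 250 bases before the RefSeq start, stood in 6 of the 13 higher chemokines with a promoter sequence (46.2%), in 7.81% of 8866 tested genes with one and in 14.3% of all 27025. In 5 of the 6 a match lay within 60 bases of the start, and these 60 bases are shown, 5′ to 3′, with TATAAA in capitals.

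Ccl12, chr11:82101785-82101844, plus strand: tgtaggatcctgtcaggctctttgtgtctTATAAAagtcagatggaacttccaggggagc
Ccl8, chr11:82115125-82115184, plus strand: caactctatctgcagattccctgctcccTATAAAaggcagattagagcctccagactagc
Cxcl3, chr5:90786041-90786100, plus strand: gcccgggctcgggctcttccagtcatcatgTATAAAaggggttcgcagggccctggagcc
Ppbp, chr5:90768458-90768517, plus strand: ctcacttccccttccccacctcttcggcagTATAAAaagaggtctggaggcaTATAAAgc
Cxcl13, chr5:95956879-95956938, plus strand: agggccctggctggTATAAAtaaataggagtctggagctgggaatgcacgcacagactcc

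In Ccl12, Ccl8, Cxcl3 and Ppbp the match began, in this order, 31, 32, 30 and 30 bases before the start, and in Cxcl13 it began 46 bases before it. Ppbp held another match nearer the start. Ccl9 held its matches farther upstream. TATAAA also stood in 43.8% of all tested chemokines with a promoter sequence, in 11.6% of higher DEGs and in 11.9% of lower DEGs. A match is a description of the letters and not a working element. Cxcl5, the most evenly raised of the neutrophil ligands, had no entry in the promoter table.

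Of 20 cytokines and receptors tested, 13 rose and 1 fell. Among the 20, 3 (Il6, Il1b and Il11) were below 1 FPKM in every WT mouse and could be tested only because they were high in the other group. Interleukin 6 (Il6) was at 0.269, 0.183, 0.0607, 0.414 and 0.113 FPKM in WT mice and at 3.44, 8.2, 6.27, 10.3 and 7.64 in Ang II-treated Plod1-/- mice (log2 fold change 2.70, SE 0.22, adjusted p = 4.44e-05). Il1b, the main secreted interleukin 1, rose from 0.194 to 0.608 to 6.03, 14.9, 59.1, 33.9 and 22.4 (4.06, adjusted p = 0.000166), and so did its decoy receptor Il1r2 (4.13). Oncostatin M (Osm) rose by 2.39, Il11, a cytokine of activated fibroblasts, by 1.53, Il33 by 1.29 and the anti-inflammatory Il10 by 1.23. Socs3, which is induced by and limits signalling of the interleukin 6 family, rose from 5.88 to 18.6 to 24.9, 85.3, 76.2, 78.3 and 102 (2.57, adjusted p = 0.000728). The interleukin 4 receptor Il4ra rose by 2.51.

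Neutrophil genes were near 0 in WT mice. Of 18 listed, 11 passed the filter, 3 of them below 1 FPKM in every WT mouse, and all 11 were higher, with a median log2 fold change of 3.60. S100a9, a subunit of calprotectin, was at 3.12, 1.42, 2.47, 2.07 and 29.9 FPKM in WT mice and at 91.9, 75.8, 416, 297 and 172 in Ang II-treated Plod1-/- mice (5.10, SE 0.70, adjusted p = 0.000399). WT mouse 5 stood above the other WT mice, as it did in S100a8 (15.1 against 0.956 to 1.31). The receptor for granulocyte colony-stimulating factor, Csf3r, rose from 0.0819 to 1.82 to 4.28, 39, 65.5, 60 and 23.9 (4.28, adjusted p = 0.000482). Lipocalin 2 (Lcn2, 3.60) and Trem1 (2.45) rose. Granule genes of immature neutrophils (Camp, Ltf, Ngp, Mpo, Elane) did not reach the filter. The list's summed FPKM was 8.49 to 67.6 in WT mice and 198 to 893 in Ang II-treated Plod1-/- mice.

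Macrophage genes rose in full. All 17 listed were tested and all 17 were higher, with a median log2 fold change of 2.78, and their sum was 321 to 583 FPKM in WT mice and 1330 to 7070 in Ang II-treated Plod1-/- mice. Lysozyme (Lyz2) was at 141, 97, 105, 93.9 and 78 FPKM and at 501, 1550, 2910, 3100 and 1400 (3.95, SE 0.43, adjusted p = 0.00014). Cd68, a lysosomal glycoprotein, was at 20.6, 15.8, 11.8, 17 and 12 and at 55.2, 286, 362, 303 and 130 (3.54, SE 0.45, adjusted p = 0.000276). Mouse 1 had the lowest value of its group in both, above every WT mouse. In Csf1r, the receptor for macrophage colony-stimulating factor, mouse 1, at 11.9, lay inside the WT range of 6.82 to 17, and mice 2 to 5 were at 71.4 to 101 (2.47, adjusted p = 0.00316). The C1q chains rose together, C1qa by 2.65, C1qb by 2.87 and C1qc by 2.61. Using mice 1 and 2 alone, 12 of the 17 were called.

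Genes of macrophages in injured tissue included Arg1 and Spp1, the pair with the largest increases. Of 15 tested, 11 rose and 4 were not called, and 4 of the 15 were below 1 FPKM in every WT mouse. Arginase 1 (Arg1), which turns arginine into ornithine, was at 0.146, 0.0829, 0.0496, 0.134 and 0 FPKM in WT mice and at 25.3, 150, 167, 340 and 27.1 in Ang II-treated Plod1-/- mice (log2 fold change 6.40, SE 0.64, adjusted p = 0.000102). Chil3, a chitinase-like protein of recruited macrophages, was at 0, 0.249, 0.203, 0.0456 and 1.3 and at 10.6, 193, 85.8, 306 and 37.2 (5.85, SE 0.75, adjusted p = 0.000276). The lipid receptor Trem2 (4.09), the fatty acid binding protein Fabp5 (3.13), galectin 3 (Lgals3, 2.94) and the monocyte chemokine receptor Ccr2 (2.34) rose.

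Of 11 genes linked to resident macrophages of the adventitia, 5 rose and 1 fell. Factor XIII (F13a1) rose by 2.35, the mannose receptor Mrc1 by 2.04 and the haptoglobin-hemoglobin receptor Cd163 by 1.84, and Cbr2 fell from 350 to 473 to 109 to 272 (log2 fold change -1.20). Retnla, a secreted protein of alternatively activated macrophages, fell as well, from 41.4, 36, 24.2, 24.6 and 18.5 to 6.11, 2.97, 0.882, 1.02 and 2.49 (-3.14, SE 0.35, adjusted p = 0.000165). It thus moved against Arg1 and Chil3, with which it is often listed. In a fit with mice 1 and 2 alone 1 of the 11 resident macrophage genes rose and none fell.

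Other immune lists were smaller. None of the 15 genes of T and natural killer cells reached the filter. Of 11 B and plasma cell genes 2 were tested, Igkc (log2 fold change 3.44) and Ighm (2.41), and both rose. In the MHC class II list 6 of 7 rose, H2-Aa from 11.1 to 26.1 to 34.1, 53.7, 102, 44.1 and 83.9 (1.61, adjusted p = 0.00249) and Cd74, the invariant chain, by 1.28. Restricted to mice 1 and 2, 2 of the 7 rose. Of 15 interferon-stimulated genes 5 rose, among them Oas1a (2.15), Irf7 (2.03), Isg15 (1.69) and Ifit1 (1.31). Mouse 3 was the highest in each of these 4, with Isg15 at 85.2 FPKM against 4.71 to 27.9 in the rest of its group and 3.53 to 9.92 in WT mice. Without mouse 1, 8 of the 15 were called, and with mice 1 and 2 alone 2 were.

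Complement genes rose in 8 of 15 and fell in 1 (9 and 0 without mouse 1). Besides the C1q chains, those that rose were C3ar1 (log2 fold change 2.90) and C5ar1 (2.42), the receptors for the small complement fragments, properdin (Cfp, 2.30), C4b (2.02) and factor D (Cfd, 2.82), which is made by fat. C7, a component of the membrane attack complex that was not on the list, fell from 173, 105, 161, 148 and 121 to 7.99, 39.9, 13.4, 15.9 and 29.3 (-2.86, SE 0.36, adjusted p = 0.000256). Of 7 adhesion genes tested, the leukocyte genes Selplg (3.13) and Itgb2 (3.04) rose and Mcam, a surface protein of endothelium and smooth muscle, fell (-1.35).

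**Figure D3:**
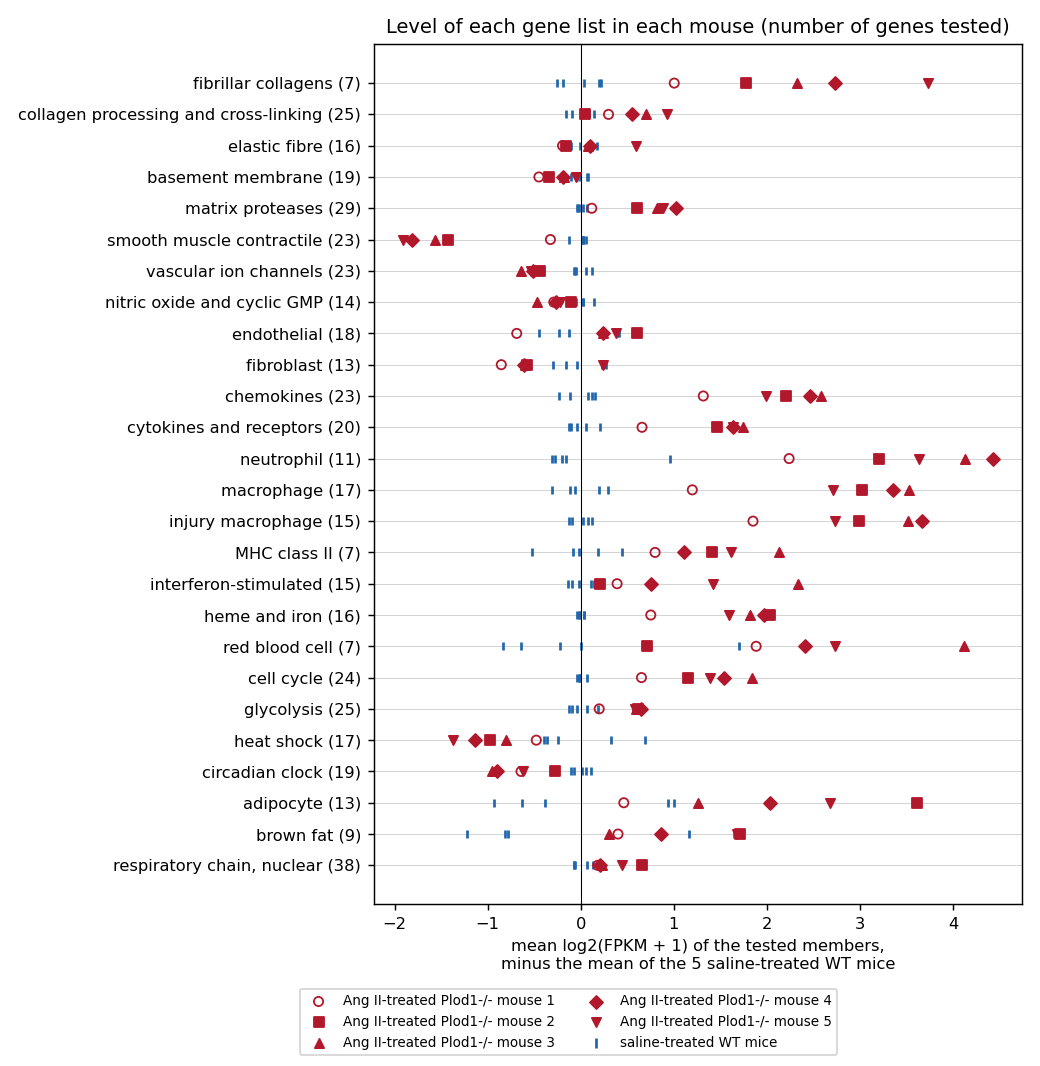
Mean log2(FPKM + 1) of the tested members of each gene list in each of the 10 mice, as the difference from the mean of the 5 saline-treated WT mice (horizontal axis), with a symbol for each replicate number. Mouse 1 of the Ang II-treated Plod1-/- group lies nearest to the WT mice in the smooth muscle list (7.18 on the log2 scale, against 5.6 to 6.08 in mice 2 to 5 and 7.38 to 7.56 in WT mice) and in the macrophage list (4.74, against 6.25 to 7.07 and 3.23 to 3.83).

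Genes that handle heme and iron rose in 8 of 16 tested, and none fell. Heme oxygenase 1 (Hmox1), which breaks down heme, was at 17.9, 26.8, 13, 22.4 and 30.4 FPKM in WT mice and at 218, 1390, 1390, 1520 and 602 in Ang II-treated Plod1-/- mice (log2 fold change 5.22, SE 0.50, adjusted p = 8.59e-05). The iron exporter ferroportin (Slc40a1) was at 0.181 to 0.238 and at 1.23, 9.3, 16.1, 11.6 and 7.35 (2.81, adjusted p = 0.000784). Being below 1 FPKM in every WT mouse, it could be tested only because it was high in the other group. Ferritin split by subunit. The light chain Ftl1 rose from 64.2 to 80.2 to 212, 350, 595, 419 and 218 (2.21, adjusted p = 0.0002), while the heavy chain Fth1 was at 4560 to 4980 and at 3190 to 5800 (-0.03, interval -0.49 to 0.43, adjusted p = 0.93). Haptoglobin (Hp), which binds free hemoglobin, rose from 22.3, 23.8, 68.1, 14.9 and 90.4 to 869, 6200, 1420, 2590 and 4040 (6.07, SE 0.61, adjusted p = 0.000102), and hemopexin (Hpx) by 1.18. Hp is also made by fat and neutrophils, whose genes were higher in the same mice. From mice 1 and 2 only, 5 of the 16 rose.

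Red blood cell transcripts were higher in 6 of 7 tested, but the groups overlapped in all 7. Hba-a1, an alpha-globin, was at 125, 77.8, 108, 56.5 and 565 FPKM in WT mice and at 580, 331, 4260, 895 and 1130 in Ang II-treated Plod1-/- mice (log2 fold change 2.91, SE 0.72, adjusted p = 0.00902). WT mouse 5 and Ang II-treated Plod1-/- mouse 3 were the highest of their groups. Hbb-bs (2.86) and Alas2 (2.41), the erythroid enzyme of heme synthesis, followed the same order of mice. When mice 1 and 2 alone stood for their group, none of the 7 was called.

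In coagulation and fibrinolysis 5 of 15 tested genes rose and 1 fell, and 2 of the 15 were below 1 FPKM in every WT mouse. Urokinase (Plau), which makes plasmin, was at 5.4, 3.28, 2.38, 1.44 and 2.06 FPKM in WT mice and at 24.1, 8.22, 23.4, 21.6 and 16.8 in Ang II-treated Plod1-/- mice (log2 fold change 2.34, SE 0.32, adjusted p = 0.000358). Its receptor Plaur rose by 1.62, Tfpi2 by 2.1 and factor X (F10) by 1.80. Serpine2, which inhibits thrombin and urokinase, fell from 130, 146, 132, 148 and 136 to 54.8, 19.8, 56.4, 36.8 and 20.5 (-1.98, SE 0.29, adjusted p = 0.000487).

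Hyaluronan, the large sugar polymer of injured tissue, was represented by 9 tested genes, of which 4 rose and 1 fell. The synthase Has1 rose from 0.494 to 4.53 to 9.31, 9.44, 12.7, 8.11 and 17.1 (log2 fold change 2.25, adjusted p = 0.000482), the receptor Cd44 by 1.82 and the hyaluronan-binding Tnfaip6 by 1.70. Stab1, a scavenger receptor for hyaluronan, rose by 2.09. The hyaluronidase Hyal1 fell (-1.54). Of 12 prostanoid and leukotriene genes 3 rose besides the fall of Ptgis, and these were genes of leukocytes, Alox5ap (2.56), thromboxane synthase (Tbxas1, 1.97) and Alox5 (1.52). Using mice 1 and 2 alone, 2 of the 9 hyaluronan genes and 2 of these 12 rose, and 1 of each fell.

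Cell division genes rose in 15 of 24 tested and none fell (median log2 fold change 1.28), and 5 of the 24 were below 1 FPKM in every WT mouse. Cdk1, the kinase that drives mitosis, was at 0.301, 0.3, 0.179, 0.279 and 0.0953 FPKM in WT mice and at 2.26, 4.5, 11.3, 7.87 and 6.54 in Ang II-treated Plod1-/- mice (2.47, SE 0.29, adjusted p = 0.000198). Cdk1 was among the genes below 1 FPKM in every WT mouse, so its groups could not overlap. Mouse 1 had the lowest value of its group. Cyclin B2 (Ccnb2, 2.81), Cdc20 (2.79), Plk1 (2.46), Aurkb (2.44) and Top2a (2.08), of mitosis, and Mcm5 (1.90), of DNA replication, rose. The D-type cyclins and Cdkn1a were not called.

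Of 16 genes of serine and one-carbon metabolism 4 rose (25% called, against 13.9% of all genes). Asparagine synthetase (Asns) was at 1.34, 2.19, 3.02, 2.72 and 2.64 FPKM in WT mice and at 11.1, 24.1, 14.2, 16.5 and 16.3 in Ang II-treated Plod1-/- mice (log2 fold change 2.35, SE 0.20, adjusted p = 5.14e-05). Psat1 (1.75) and Phgdh (1.08), of serine synthesis, and Chac1 (1.28), which degrades glutathione, also rose. Of 25 glycolytic genes 7 rose (28% called), among them Hk3 (2.39), a hexokinase of leukocytes, Slc16a3 (1.31), Pgk1 (1.27), Ldha (1.25), Eno1 (1.13) and Slc2a3 (1.11). Ldha was at 81 to 128 and at 208, 257, 278, 262 and 283. The mean level of the list was lower in mouse 1 (4.68 on the log2(FPKM + 1) scale) than in the other mice of its group (5.06 to 5.13). In a fit with mice 1 and 2 alone 4 of the 25 rose. Mvd, an enzyme of the mevalonate pathway to cholesterol, was among the 10 smallest p-values, at 3.19 to 4.36 and at 14.4, 12.2, 15.8, 18.6 and 14.7 (1.73, SE 0.12, adjusted p = 2.36e-05).

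Genes of protein folding in the endoplasmic reticulum were called in 12%, near the 13.9% of all genes. Of 25, 3 rose, Pdia5 (log2 fold change 1.21), Sdf2l1 (1.13) and Sec61b (1.08), and the chaperone Hspa5 was at 218 to 427 and at 182 to 314 (-0.36, adjusted p = 0.195). A single one of 22 genes of ribosome biogenesis was called. Neither the 38 nuclear-encoded nor the 13 mitochondrially encoded respiratory chain genes held a DEG, with medians of 0.35 and 0.17. The most abundant of them, mt-Co1, was at 8730 to 15900 and at 11700 to 24700 (0.56, adjusted p = 0.16).

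Heat shock genes fell in 7 of 17 and none rose. Hspb1, a small heat shock protein of smooth muscle, was at 2460, 3510, 3110, 2940 and 1690 FPKM in WT mice and at 2870, 768, 382, 476 and 327 in Ang II-treated Plod1-/- mice (log2 fold change -2, SE 0.52, adjusted p = 0.0116). Mouse 1 lay inside the WT range. Hspb6 (-1.74), Hspb8 (-1.07), Hspa1a (-1.69) and Hspa8 (-1.02) fell, and in Hspa1a the fall leaned on WT mouse 1, at 73.3 FPKM against 8.56 to 23 in the other WT mice. Hspa8 was no longer called in the fit without mouse 1 (-0.9, adjusted p = 0.0426). Restricted to mice 1 and 2, none of the 17 was called, in a fit that called 7.34% of all genes. The early-response genes were called about as often as all genes (14.8% against 13.9%). Of 27, 3 rose, Klf2 (1.55), Myc (1.42) and Dusp5 (1.05), and the nuclear receptor Nr4a3 fell from 6.49 to 28.8 to 1.16 to 3.08 (-2.38, adjusted p = 0.000606). Without mouse 1, 5 of the 27 early-response genes rose, and with mice 1 and 2 alone none did.

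Among genes that make or remove oxidants, 8 of 22 tested rose and 1 fell. The oxidases moved apart. The phagocyte subunits rose, Cybb from 0.269 to 0.792 to 1.13, 7.09, 11.7, 10.2 and 7.92 (log2 fold change 2.36, adjusted p = 0.00131) and Ncf4 by 3.39, and Nox4, the oxidase of vascular wall cells, fell from 27.8, 30.6, 48.2, 32 and 48.6 to 10.9, 19.8, 7.7, 7.47 and 10.2 (-1.70, SE 0.26, adjusted p = 0.000625). Cybb was below 1 FPKM in every WT mouse and could be tested only because it was high in the other group. Catalase (Cat, 1.26) and the secreted Gpx3 (2.57) rose. In apoptosis 4 of 26 rose and 1 fell (19.2% called, against 13.9% of all genes). The BCL2 relative Bok rose by 2.24, and the survival factor Bcl2 fell evenly, from 4.67 to 5.96 to 1.61 to 2.11 (-1.10, SE 0.10, adjusted p = 6.67e-05). From mice 1 and 2 only, 5 of the 22 oxidant genes and 1 of the 26 apoptosis genes rose, and 1 of each fell. Without mouse 1, 6 of the 26 apoptosis genes rose and 4 fell.

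The circadian clock runs in the vessel wall as a loop in which BMAL1 (Arntl) and CLOCK activate genes with an E-box, among them the Per, Cry and Nr1d repressors and the output factors Dbp, Tef and Hlf. Of 19 clock genes tested 8 fell and none rose, with a median log2 fold change of -0.59. Dbp was at 30.1, 40.5, 56.1, 59.4 and 34.2 FPKM in WT mice and at 12.3, 9.15, 6.82, 3.97 and 7.37 in Ang II-treated Plod1-/- mice (-2.36, SE 0.27, adjusted p = 0.000167). Nr1d1, which represses Arntl, was at 129, 218, 125, 130 and 130 and at 63.8, 35.2, 17.9, 22.2 and 33.5 (-2.15, SE 0.30, adjusted p = 0.000434). Dbp overlaps Sphk2 and Nr1d1 overlaps Thra on the other strand. Per2 (-1.65), Hlf (-1.55), Tef (-1.44), Nr1d2 (-1.33) and Per3 (-1.06) fell too. Arntl was at 0.466 to 2.28 and at 1.57 to 3.05 (0.56, adjusted p = 0.0541), Per1 at 25.6 to 53.9 and at 18.1 to 46.1 (-0.31, adjusted p = 0.369), and Cry1 at 2.19 to 6.72 and at 2.12 to 7.09 (-0.29, adjusted p = 0.433). The hour of death is not in the labels, so it and the group cannot be told apart for these genes.

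Ciart, a repressor of CLOCK and BMAL1, fell from 14.5, 13.1, 24.3, 23.2 and 11.1 to 8.23, 4.74, 2.35, 1.32 and 1.82 (log2 fold change -2.09, SE 0.37, adjusted p = 0.00141). The E-box letters CACGTG, which read the same on both strands, stood within 250 bases before the start in 2 of the 7 lower clock genes with a promoter sequence (28.6%), in 5 of the 16 tested (31.2%), in 10% of all genes tested and in 6.86% of all promoters. The 2 were Ciart and Tef, and both are printed to show how the boxes are spaced, with each box in capitals.

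Ciart, chr3:95882229-95882478, minus strand: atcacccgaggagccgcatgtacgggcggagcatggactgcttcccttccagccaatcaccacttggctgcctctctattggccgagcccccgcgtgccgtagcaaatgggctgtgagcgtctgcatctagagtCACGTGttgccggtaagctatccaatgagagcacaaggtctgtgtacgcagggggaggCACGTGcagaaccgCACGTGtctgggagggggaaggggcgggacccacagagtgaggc
Tef, chr15:81811164-81811413, plus strand: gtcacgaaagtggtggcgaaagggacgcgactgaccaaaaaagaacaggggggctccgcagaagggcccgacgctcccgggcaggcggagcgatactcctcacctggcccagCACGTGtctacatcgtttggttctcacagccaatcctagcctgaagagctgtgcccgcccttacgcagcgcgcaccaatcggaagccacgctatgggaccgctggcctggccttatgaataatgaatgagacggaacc

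Ciart held 3 boxes, centred 113, 55 and 41 bases before the start. Tef has a pair of starts in the table, each with 1 box, centred 124 bases before the one and 135 bases before the other, which is the start shown. Tef was at 20.6, 28.5, 55.6, 43 and 44.7 FPKM in WT mice and at 15, 22.9, 7.39, 9.67 and 13.1 in Ang II-treated Plod1-/- mice, with mouse 2 inside the WT range. The boxes in Per1 and Cry1, which were not called, lay 163 and 57 bases before the start. When mice 1 and 2 alone stood for their group, 4 of the 19 clock genes fell.

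**Figure D4:**
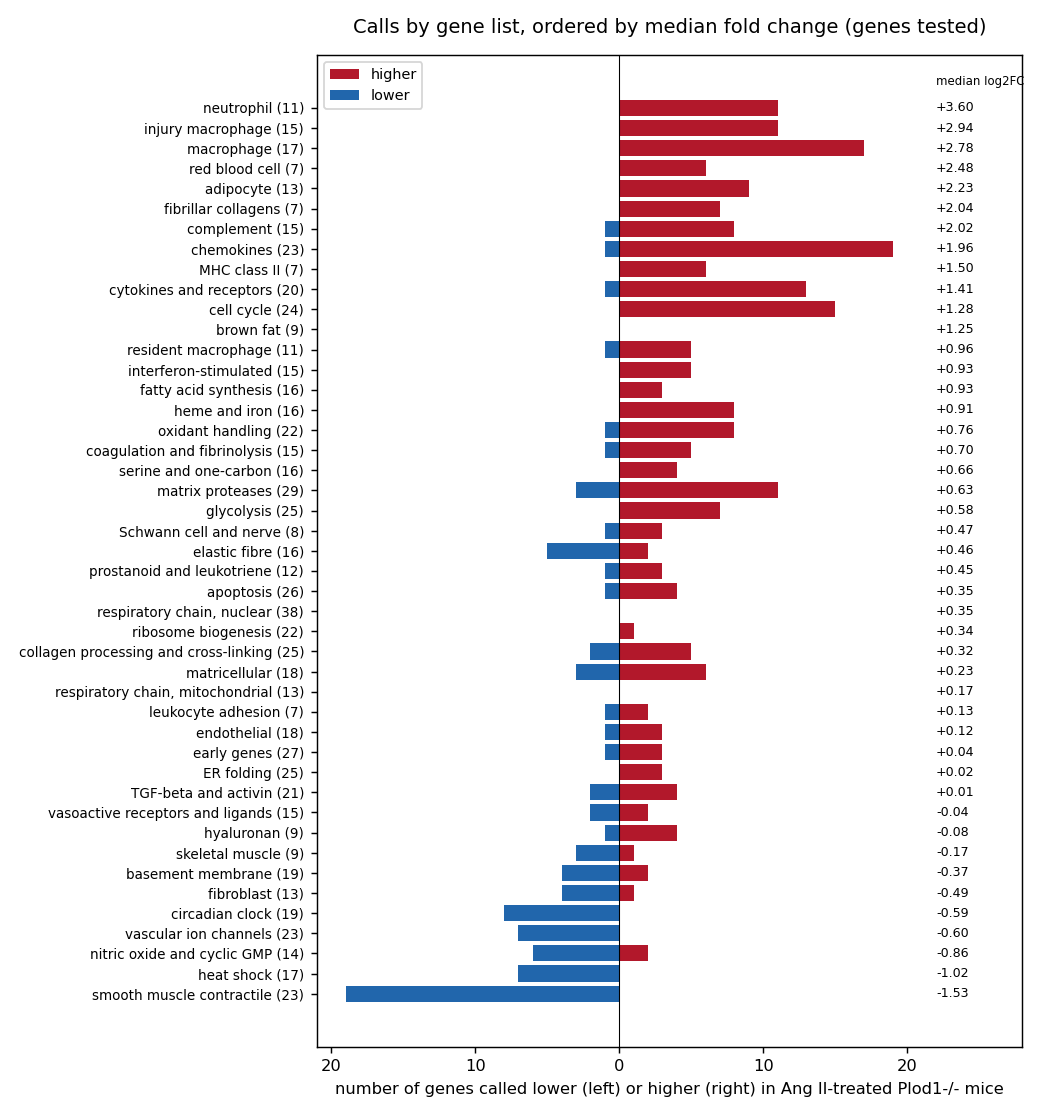
Number of genes called lower (left) or higher (right) in Ang II-treated Plod1-/- mice in each list with at least 7 genes tested, ordered by the median log2 fold change printed at the right. The neutrophil (11 of 11) and macrophage (17 of 17) lists stand at the higher end and the smooth muscle list (19 of 23 lower) at the other.

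Fat lies around the aorta and was higher in the Ang II-treated Plod1-/- libraries. Of 13 adipocyte genes 9 rose and none fell. Adiponectin (Adipoq) was at 15.7, 9.1, 42.3, 3.55 and 33.9 FPKM in WT mice and at 84.9, 611, 103, 186 and 367 in Ang II-treated Plod1-/- mice (log2 fold change 3.66, SE 0.69, adjusted p = 0.00201). The lipid droplet proteins Cidec (2.95) and Plin1 (2.62) and the fatty acid carrier Fabp4 (2.47) rose. Mouse 2 was the highest in each of these 4 genes. In Ang II-treated WT mice Adipoq was at 90.7 to 366. None of 9 brown fat genes was called, Ucp1 being at 0.955 to 160 and at 36.6 to 165 (2.32, interval -0.05 to 4.68). Of 16 genes of fatty acid synthesis Scd2 (1.42), Srebf1 (1.39) and Dgat1 (1.12) rose (18.8% called, against 13.9% of all genes). The groups overlapped in all 16. How much of the difference in Hp, Cfd and Gpx3, which fat also makes, came with this tissue was not tested. Without mouse 1, 12 of the 13 adipocyte genes and 5 of the 16 fatty acid synthesis genes rose, and with mice 1 and 2 alone 2 and 0 did.

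Genes of nerve sheath rose with the sympathetic genes. Of 8 tested 3 rose and 1 fell. Mbp, a myelin protein, was at 0.655 to 1.33 FPKM in WT mice and at 1.6, 4.31, 6.89, 11.3 and 6.06 in Ang II-treated Plod1-/- mice (log2 fold change 1.69, SE 0.34, adjusted p = 0.00287). The 3 mice high in Th and Dbh were also the 3 highest in Mbp, and with mice 1 and 2 alone none of the 8 rose. Ncam1 fell (-1.40).

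Endothelial genes were mostly not called, 3 of 18 higher and 1 lower (22.2% called, against 13.9% of all genes), with a median of 0.12. Pecam1 fell from 101, 62.5, 153, 185 and 93.6 FPKM to 18, 75.5, 48.3, 37.1 and 44.8 (log2 fold change -1.43, SE 0.37, adjusted p = 0.0115), while Emcn (1.46), Robo4 (1.57) and Kdr (1.33) rose. Cdh5, which seals endothelial junctions, was at 7.82 to 19.4 and at 9.25, 27.5, 28.3, 39.4 and 35.9 (0.86, adjusted p = 0.0793), and Tek at 4.68 to 11 and at 2.24 to 7.3 (-0.50, adjusted p = 0.163). The markers thus moved unequally. Cdh5 was called higher in the fit without mouse 1 (1.2, adjusted p = 0.00184). Without mouse 1, 5 of the 18 rose and 1 fell, and with mice 1 and 2 alone none was called.

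Of 13 fibroblast genes 1 was higher and 4 were lower. Clec3b fell from 380, 242, 241, 325 and 157 to 48.5, 59.8, 28.6, 24.2 and 64.6 (log2 fold change -2.59, SE 0.31, adjusted p = 0.000221). Pi16 (-1.74), of adventitial fibroblasts, Islr (-1.95) and gelsolin (Gsn, -1.59) fell, and Thy1 rose (1.46). Pdgfra, the receptor that marks fibroblasts in general, was at 7.55 to 9.28 and at 4.37 to 14.5 (0.03, interval -0.48 to 0.54, adjusted p = 0.932), and decorin (Dcn) at 198 to 304 and at 94.1 to 224 (-0.94, adjusted p = 0.00988). Pdgfra was below every WT mouse in mice 1 and 3 and above them in mice 2, 4 and 5. Using mice 1 and 2 alone, 5 of the 13 fell and none rose.

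Of 9 tested genes named for skeletal muscle 1 rose and 3 fell. Those that fell were Tcap (log2 fold change -3.42), Casq1 (-2.89) and Actn2 (-1.33). Tcap was at 184, 321, 431, 414 and 310 FPKM in WT mice and at 40.6, 84.4, 29.4, 7.61 and 24.1 in Ang II-treated Plod1-/- mice. The defining genes of skeletal muscle, such as Myh1, Myh2, Myh4, Ckm and Ttn, did not reach the filter in these libraries. Myl1 rose (1.52), and was no longer called with mice 1 and 2 alone. Mylk4, a kinase related to that of myosin light chain, fell from 51.8 to 83.6 to 13.9, 7.45, 11.6, 6.77 and 3.78 (-2.88, SE 0.28, adjusted p = 8.8e-05).

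The smallest p-values after Plod1 belonged to genes with little spread in either group. The secreted protein genes Wfdc17 (log2 fold change 4.76, adjusted p = 5.83e-06), Saa3 (3.34, adjusted p = 1.58e-05) and Wfdc21 (3.69, adjusted p = 2.36e-05) rose. Saa3, an acute-phase protein, was at 0.0283 to 0.306 and at 8.9, 18, 7.03, 9.38 and 13.9. It could be tested only because it was high in the latter group. The Wnt inhibitor Wif1 fell from 21, 20.3, 16.2, 23.7 and 18.2 FPKM to 1.95, 3.25, 3.37, 2.72 and 2.5 (-2.48, SE 0.14, adjusted p = 7.65e-06). The guidance factor Sema3c fell from 13 to 16.9 to 3.26 to 4.65 (-1.64, adjusted p = 1.61e-05), and the growth factor Pdgfd from 30.1 to 33.4 to 5.73 to 9.78 (-1.86, adjusted p = 2.15e-05). In these 6 genes mouse 1 lay among or close to the other mice of its group, in contrast to Acta2 and Csf1r. Among the most abundant transcripts, Mgp, an inhibitor of calcification in the vessel wall, fell from 3450 to 7190 to 878 to 2610 (-1.73, SE 0.30, adjusted p = 0.00131).

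**Figure D5:**
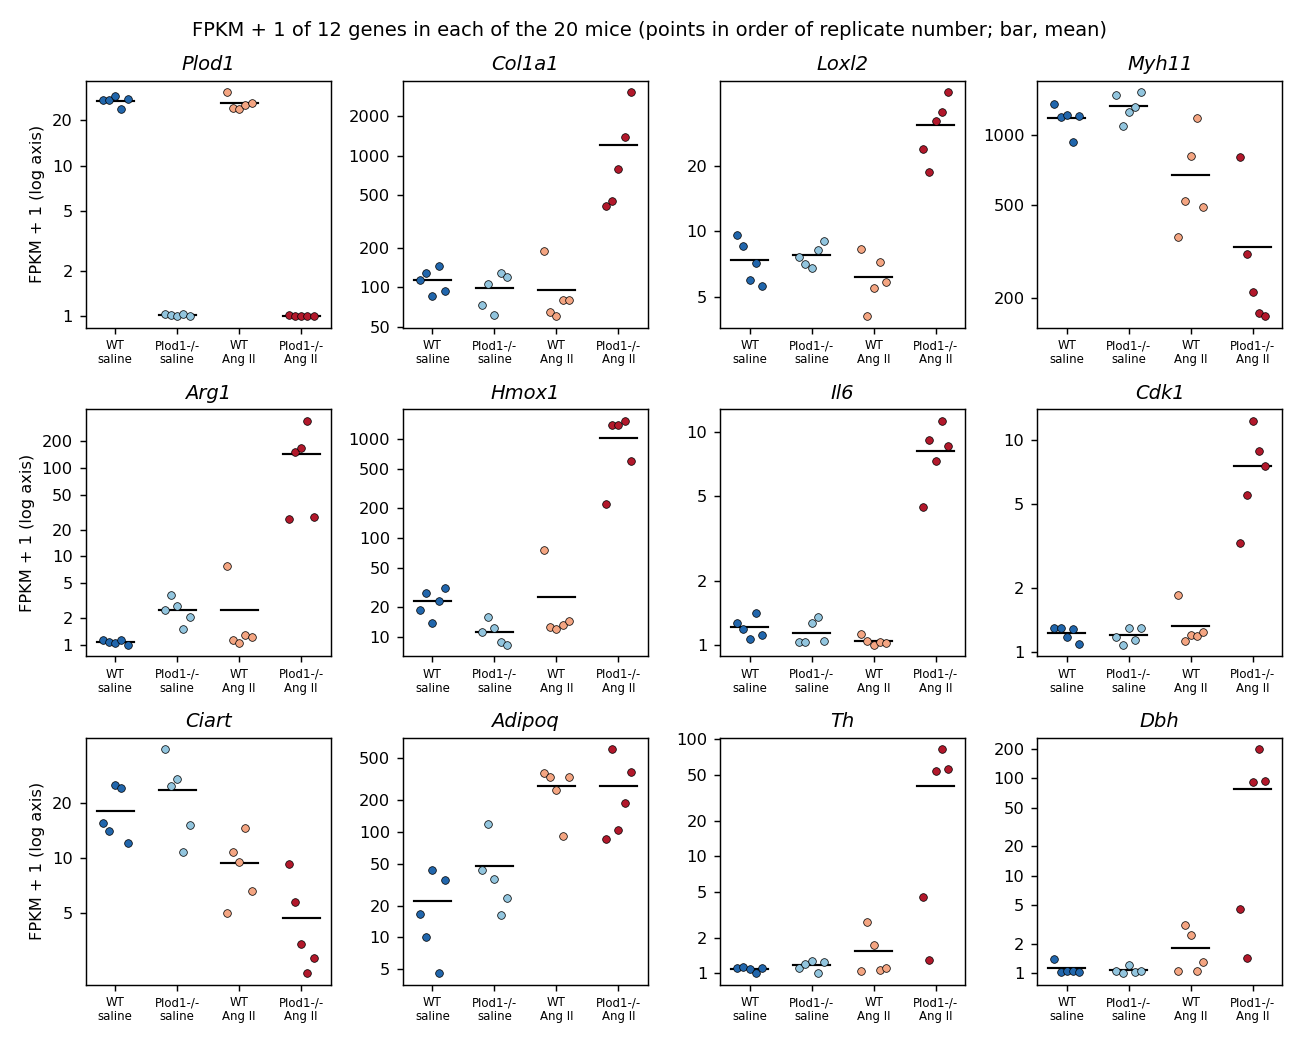
FPKM + 1 (log axis) of 12 genes in each of the 20 mice, with points in order of replicate number and a bar at the mean of each group. Plod1 separates the genotypes, Col1a1, Arg1, Hmox1, Il6 and Cdk1 are above every other mouse in the 5 Ang II-treated Plod1-/- mice, and Th and Dbh are high in 3 of those 5.

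The other 10 mice give the levels that each change alone was seen with. In 803 of the 12288 genes (6.53%) all 5 Ang II-treated Plod1-/- mice lay above or below all 15 other mice. Without saline-treated Plod1-/- mouse 5 this held for 809 (6.58%), and without Ang II-treated Plod1-/- mouse 1 for 2017 (16.4%). Fewer mice also raise such a count. Col1a1 was at 59.9 to 128 FPKM in saline-treated Plod1-/- mice and at 58.8 to 187 in Ang II-treated WT mice, against 413 to 3050 with both changes. Thbs1 was at 4.29 to 24.1 and at 3.92 to 13.1, against 63.2 to 189. Il6 was at 0.0277 to 0.347 and at 0 to 0.121, against 3.44 to 10.3. Hmox1 was at 7.38 to 15.1 and at 11 to 73.9, against 218 to 1520, and Cdk1 at 0.0819 to 0.296 and at 0.129 to 0.858, against 2.26 to 11.3.

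For other genes at least 1 of the groups with a single change overlapped the Ang II-treated Plod1-/- mice. In Myh11 and Wif1 these were the Ang II-treated WT mice alone. Myh11 was at 1090 to 1520 FPKM in saline-treated Plod1-/- mice and at 363 to 1180 in Ang II-treated WT mice, against 166 to 801. Pcolce2 was at 8.3 to 24.3 in saline-treated Plod1-/- mice and at 9.82 to 35.7 in Ang II-treated WT mice, against 8.27 to 13.4. Wif1 was at 1.4 to 16.2 in Ang II-treated WT mice and at 13.2 to 31.1 in saline-treated Plod1-/- mice, against 1.95 to 3.37. Adipoq reached 366 and Cxcl13 reached 225 in Ang II-treated WT mice, and Igkc was at 14.9 to 173 in saline-treated Plod1-/- mice and at 23.7 to 541 in Ang II-treated WT mice, against 18.9 to 100. No test of these differences was made here, since the comparison is between the groups that differ in both genotype and treatment.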

How the data were processed

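RNA of abdominal aorta from 5 mice per group was sequenced. Per the methods, the authors discarded reads of ribosomal RNA before alignment with HISAT2, and deposited FPKM values for 43422 genes from cuffnorm. The submitters' processing notes name the build mm10, HISAT2 2.1.0 (the methods give another version), Bowtie2 2.2.3 and HTSeq 0.6.0. The libraries were unstranded according to the kit in the methods, so a gene that overlaps another on the opposite strand (Ctsb, Csf1r, Fstl3, Cdc20, Hspb6, Hk3 and Srebf1, besides those named in the text) may hold reads of its partner. The array hybridization in the labels' protocol does not match these files. Read depth cannot be had from FPKM.

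A gene was tested where 5 or more of the 10 mice reached 1 FPKM. Tests were run on log2(FPKM + 1) with limma 3.58.1 in R 4.3.3 (empirical Bayes with a variance trend, unpaired), and p-values were adjusted by Benjamini and Hochberg over all 12288. The edgeR test of the study needs counts and was not used here, but its thresholds were kept. Genes below the filter were compared by an exact permutation test, two-sided. The test was tested on simulated data of 11717 genes. There 190 of 200 genes changed by 1.5 on the log2 scale and 199 of 200 changed by 3 were found, with 5 false calls in each. Only genes whose WT mean was above 3 on the log2(FPKM + 1) scale were changed. The noise was independent and of equal spread in both groups. Changes of weakly expressed genes, an outlying mouse and RNA of other tissue were not simulated.

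The members and the gene lists were chosen with earlier results of these data known, and their counts are descriptions. Of 1002 list symbols 1001 matched the files. Besides list members, the text names Plod1, the 10 largest increases and 10 largest decreases among DEGs with a symbol whose groups did not overlap, the 10 smallest p-values and the 10 highest mean levels. Alternatives were another pseudocount, filters, a replicate block, no trend, weights, quantile normalization, all 4 groups in 1 fit, no mitochondrially encoded genes, other thresholds and each mouse left out. Gene positions are from GENCODE M21 (GRCm38) and promoters from RefSeq (GRCm38.p6). Figures were drawn with matplotlib 3.10.9 in Python 3.11.15. No library pair held identical values. Some genes of the lists are counted but not reported by name.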

Additional observations from a re-analysis of the deposited data

Results flagged for a closer look

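In each group of 5 mice the highest and the lowest mouse were compared with the nearest of the others by Dixon's ratio on the log2(FPKM + 1) scale. This was done over 96 list levels and 594 gene levels, of which 10 and 42 were past the 95% critical value. Chance alone passes about 1 group in 20. The values are given with no explanation.

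The mean level of a list, on the log2(FPKM + 1) scale, was far from the other 4 mice in these cases. Ang II-treated Plod1-/- mouse 1 was lowest in cytokines and receptors (3.22), endothelial genes (2.73) and glycolysis (4.68), and highest in the mitochondrially encoded respiratory chain (9.85). Mouse 5 of that group was highest in TGF-beta and activin signalling (4.1) and in fibroblast genes (6.33). Among saline-treated WT mice, mouse 5 was highest in neutrophil genes (1.91), mouse 4 was lowest in smooth muscle contractile genes (7.38) and highest in oxidant handling (5.16), and mouse 3 was highest in skeletal muscle genes (3.13).

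Ang II-treated Plod1-/- mouse 1 was far above the others of its group, with levels given in FPKM, in Adamts1 (91.1), Tagln (12.2), Myocd (1.72), Cacna1c (3.02), Ccl27a (4.04), mt-Cytb (22000), mt-Nd1 (15000), mt-Nd2 (9460) and mt-Nd4 (7790). It also passed the critical value in Plod1 (0.0284), a level near the floor, because the other mice of its group were at 0. It was far below them in Emilin2 (7.01), Mmp19 (3.22), Tgfb1 (7.64), Ednrb (4.5), Il1r2 (9.07), Socs3 (24.9), Il4ra (15.6), Csf1r (11.9), F13a1 (12.3), Cybb (1.13), Cdh5 (9.25), Emcn (2.34), Robo4 (0.696) and Mpeg1 (6.66). Mouse 5 of the same group was far above the others in Fst (23.2) and Actn2 (2.39).

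Among saline-treated WT mice, mouse 5 was far above the others in Mmp8 (1.44), S100a8 (15.1), S100a9 (29.9) and Chil3 (1.3), all genes of neutrophils or recruited macrophages. Mouse 1 was highest in Adgre1 (4.71), Tbxas1 (0.745) and Myc (30.4) and lowest in Smad6 (0.973) and Lgals3 (11.7). Mouse 4 was lowest in Smtn (278) and Flna (1110) and highest in Mcm5 (2.94) and Gm23935 (8020), mouse 2 was lowest in F13a1 (6.76) and highest in Nr1d1 (218), and mouse 3 was highest in Igkc (9.01).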

How the results depend on the processing

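The count of 1702 DEGs was between 1136 and 2207 under the other settings of the test that kept both thresholds. Dropping the fold threshold gave 4954 (2709 higher, 2245 lower), and requiring a log2 fold change above 2 gave 439 (368 higher, 71 lower). A filter of 1 FPKM in all 10 mice, which removes genes near 0 in a group, left 630 higher and 506 lower. Mice 1 and 2 as the only Ang II-treated Plod1-/- mice gave 902 (539 higher, 363 lower). Leaving out 1 mouse at a time gave 1553 to 2099 (972 to 1356 higher, 577 to 743 lower), with the highest counts without Ang II-treated Plod1-/- mouse 1. Calls were 63% higher in the main test, 54% after quantile normalization and 55.5% with the stricter filter.

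Of 297 named genes with a fold change 267 were called, 238 of them under every other setting that tested them, except the fold threshold of 2, the fits without a mouse and the fit with mice 1 and 2 alone, and 237 in each of the 10 fits without 1 mouse. The stricter filter tested 220 of the 297 genes. The genes whose sign turned were not called. With mice 1 and 2 alone these were Plod2 (-0.21), Postn (-0.44), Mmp2 (-0.1), Fth1 (0.06), Pdgfra (-0.33), Lum (-0.4) and mt-Nd2 (0.26). With a weight per mouse they were Fth1 (0.05), mt-Cytb (-0.04), mt-Nd1 (-0.2), mt-Nd4 (-0.24) and Gm23935 (-0.12). Quantile normalization turned Pdgfra (-0.07) and mt-Nd4 (-0.03), and leaving out mitochondrially encoded genes turned Pdgfra (-0.03). Without 1 mouse at a time Fth1 was at -0.1 to 0.11, Pdgfra at -0.14 to 0.24, mt-Cytb at -0.01 to 0.34, mt-Nd1 at -0.3 to 0.17 and mt-Nd4 at -0.2 to 0.19. The causes were not tested.

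The replicate number as a block gave 1675 DEGs (1054 higher, 621 lower), 1667 of them among the 1702. The numbers do not pair the mice: deviations of same-numbered mice from their group means correlated at 0.0731, -0.327, -0.3, 0.0185 and 0.218, and number 5 alone correlated best with its own number. Depth was unknown, so no limit from counting can be given.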
